A study of Mus musculus with 8 samples.

Results

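Leukocyte genes were followed in a mouse thymic epithelial cell line. The set held 32 genes listed by name as genes of thymocytes, B cells and myeloid cells, and each was represented by its brightest array probe. All 32 had a probe on the array, out of 22883 named genes with a usable probe. For 26 of the 32, the scanner software flagged a probe well above background in both replicates of 1 group or more, and these 26 were tested among 19023 genes that passed the same filter.

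The RNA came from TEC100.4, an immortalized mouse line whose origin is given as cortical thymic epithelium. The 4 groups, of 2 one-colour arrays each, were the δ line with doxycycline (genotype label: overexpression of mutant TFII-I δ), the δ line without doxycycline, the β line with doxycycline (overexpression of mutant TFII-I β) and the β line without doxycycline. The antibiotic doxycycline switches on the mutant TFII-I, a transcription factor encoded by Gtf2i, and was given for 24 h. All groups therefore carried an inducible mutant construct, and no line without one was part of these samples. The genotype label of the untreated arrays names wild type TFII-I, while their titles name the mutant lines without doxycycline, and the titles set the groups here. The sources used here do not give whether each line is 1 clone or a pool. Separate cultures are not named in the labels for the 2 arrays of a group, and the p-values below therefore cover the spread between arrays, which may be technical. Levels below are log2 intensities relative to the 75th percentile of the same array, so 0 is the level of that percentile.

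In the thymus, epithelial cells form the stroma in which thymocytes rearrange their antigen receptor genes and are selected, and macrophages and dendritic cells clear and instruct them. The T cell receptor signals through CD3 chains, and many myeloid receptors signal through small adaptors such as TYROBP and the Fc receptor gamma chain, whose tails carry paired tyrosine motifs called ITAMs. These genes are known from leukocytes rather than epithelium, which makes the detection of each transcript the first question here. In bulk RNA, fewer cells of a type and less RNA per cell cannot be told apart.

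Features of the whole series touched these genes. The 8 arrays shared 1 slide, and doxycycline arrays filled row 1 while untreated arrays filled row 2, which means that slide row and doxycycline cannot be told apart. The β arrays filled columns 1 and 2 and the δ arrays columns 3 and 4, so slide column and line cannot be told apart either. Between 76.7% and 79.8% of usable probes were flagged well above background on the doxycycline arrays, against 69.9% to 72.0% on the untreated arrays, and the SD of the negative controls was 3.21 to 4.32 intensity units on the doxycycline arrays against 5.11 to 5.69 on the untreated ones. Replicate 1 of the untreated δ line carried a local defect: 70 of its 1008 tiles of 8 by 8 spots deviated by a log2 difference of over 0.3, and other arrays had at most 1 such tile. No chosen probe of the 32 genes lay in such a tile. Gtf2i itself, read by a probe flagged on all 8 arrays, was at 5.28 and 5.26 in the δ line with doxycycline, 5.29 and 5.07 in the δ line without it, 4.58 and 4.66 in the β line with doxycycline and 4.39 and 4.63 in the β line without it. Its log2 difference with doxycycline was 0.09 in the δ line (limma adjusted p = 0.725) and 0.11 in the β line, with a limma adjusted p of 0.716. Between the lines Gtf2i was higher in the δ line, by 0.67 without doxycycline (limma adjusted p = 0.0195) and by 0.65 with it (limma adjusted p = 0.0207). Whether this probe reads the transgene was not tested.

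The label of the cells was checked against marker genes. Foxn1, the master regulator of thymic epithelium, and Prss16, Ctsl and Ccl25, genes of cortical epithelium, were flagged on all 8 arrays, as were the keratins Krt8, Krt18, Krt5 and Krt14. Foxn1 was dim, with group means of -4.83 to -4.31, while the lowest levels flagged on any probe were -5.99 to -5.19 across the arrays. Psmb11, the thymoproteasome subunit that defines cortical epithelium, was flagged on 0 arrays, as were Cd83 and Enpep, and Epcam was flagged on 1 array. Of 12 fibroblast genes, 10 were flagged on all 8 arrays (83.3%, against 73.1% of all named genes), Col1a1, Col1a2, Col3a1, Dcn and Fn1 among them. Of 11 cortical epithelial genes, 6 were flagged on all arrays (54.5%, below the same 73.1%) and 3 on none (27.3%, against 12.9% of all named genes).

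Detection separated the leukocyte genes into 3 sets. The software's flag asks whether a probe stands well above the background of its own array. On all 8 arrays, 19 of the 32 genes were flagged (59.4%), against 73.1% of all named genes. A further 7 were flagged on some arrays, and 6 on none (18.8%, against 12.9% of all named genes). The 6 were Ptprc, which encodes the pan-leukocyte phosphatase CD45, Cd2 and Cd3g, which encode T cell surface chains, Rag1, which encodes part of the antigen receptor recombinase, Adgre1, which encodes the macrophage antigen F4/80, and Spi1, which encodes the myeloid and B cell transcription factor PU.1. For each of them only the absence of a flag can be stated at this signal. Other markers of the same cell types were flagged on all 8 arrays. Among these were Cd3e, Cd3d, Cd4, Cd8a, Cd8b1 and Lck of T cells, and Csf1r, Cd14 and Cd68 of macrophages.

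**Figure D1:**
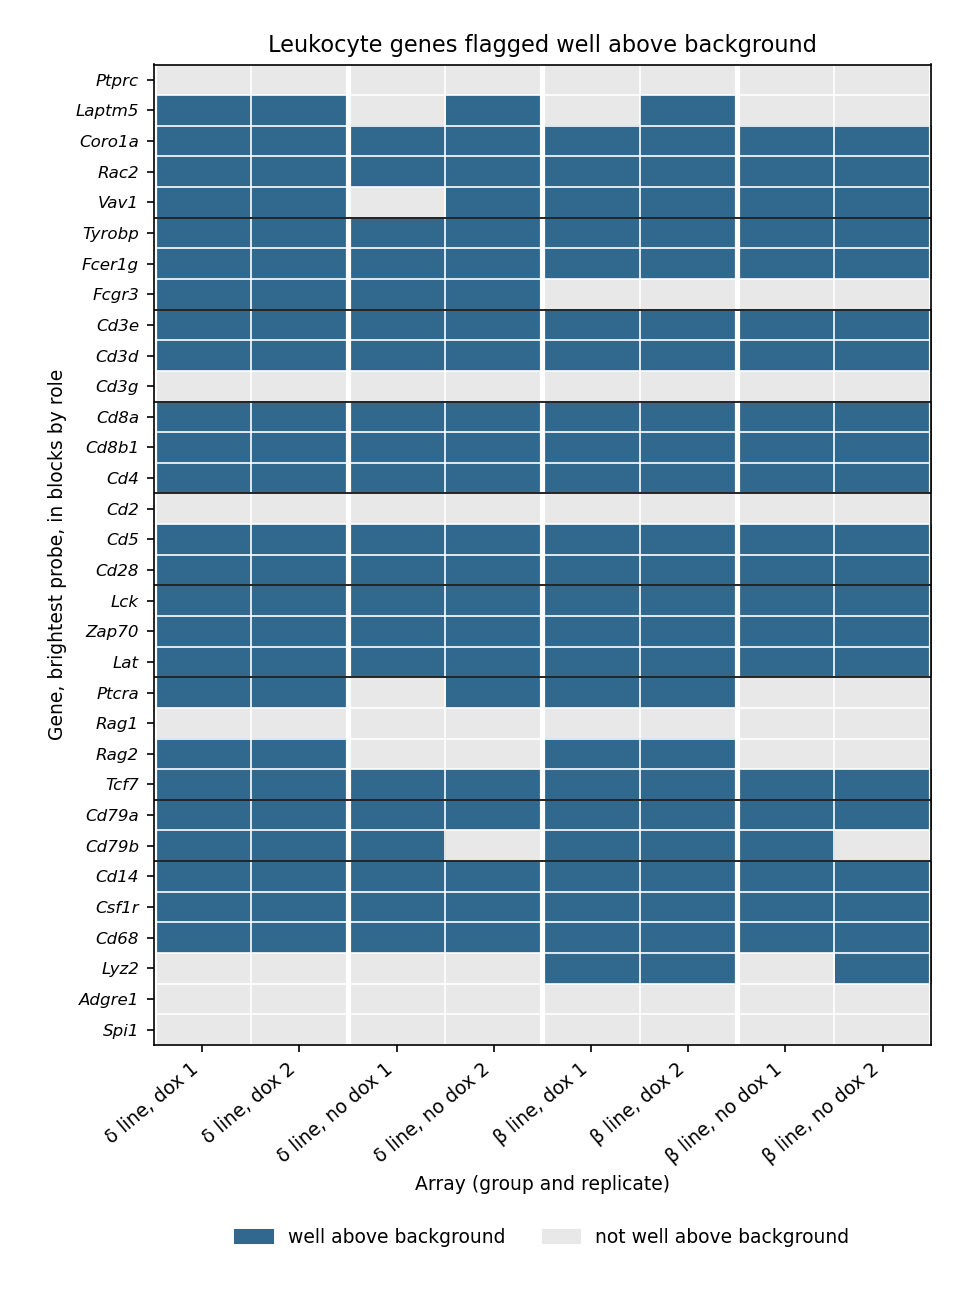
Detection of the 32 leukocyte genes (rows, in blocks by role) on the 8 arrays (columns, by group and replicate). Blue marks a brightest probe flagged well above background; 19 genes were flagged on all arrays and 6 on none.

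Counted by array, 25 and 25 of the 32 genes were flagged in the δ line with doxycycline, against 21 and 23 in the δ line without it. The β line had 24 and 25 flagged with doxycycline, against 21 and 21 without it. The counts with doxycycline were higher in both lines. The share of all named genes moved the same way, at 82.9% and 84.2% in the δ line with doxycycline against 76.2% and 77.8% without it, and at 81.5% and 83.4% in the β line with doxycycline against 77.9% and 78.2% without it. The part of the array row and of the lower background noise in these counts was not tested.

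Among genes that act in the same complex, the flags were uneven. Cd3e and Cd3d, which encode CD3 epsilon and delta, were flagged on all 8 arrays, while Cd3g, which encodes CD3 gamma, was flagged on 0, at levels of -8.22 and -8.31 in the δ line with doxycycline, -7.48 and -7.20 in the δ line without it, -7.56 and -8.13 in the β line with doxycycline and -7.15 and -7.35 in the β line without it. Rag2, which encodes the other recombinase subunit, was flagged on the 4 doxycycline arrays and on 0 untreated ones, while Rag1 was flagged on none. Its level was -4.89 and -5.23 in the δ line with doxycycline, against -4.96 and -5.50 in the δ line without it. Its β line levels were -5.14 and -5.12 with doxycycline, against -5.77 and -5.59 without it. The δ groups overlapped although their flags differed. The lowest level flagged on any probe lay between -5.65 and -5.99 on the doxycycline arrays, against -5.19 to -5.37 on the untreated ones. Rag2 was singled out after its values were seen, as were the other genes named only for their flags.

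In the gene order of the reference table, 9 of the 32 genes formed 5 pairs of direct neighbours. The flags of some neighbours differed: Rag2 (4 arrays) lies beside Rag1 (0 arrays), Vav1 (7 arrays) beside Adgre1 (0 arrays), and Cd3d (8 arrays) beside Cd3g (0 arrays). On its other side Cd3d lies beside Cd3e, which was also flagged on 8 arrays. Cd8b1 and Cd8a, which encode the chains of the CD8 coreceptor, are neighbours and were both flagged on 8 arrays.

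Probes of the same gene did not always give the same flag. Of the 32 genes, 13 had 2 probes. Both probes were flagged on some array for 8 of them, and for 2 neither was. For Cd3d, Rag2 and Tcf7 the brighter probe was flagged on at least 4 arrays while the other was flagged on 0. Detection of these 3 genes therefore rests on 1 probe each, and whether both probes read the same transcripts was not tested.

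The stretch just before the start of a gene was examined for a purine-rich string of the kind found in sites for ETS family factors, of which PU.1 is one. RefSeq promoter windows (assembly GRCm38.p6, 250 bases before the start) were at hand for 21 of the 32 genes. GAGGAA, on either strand, occurred in 15 of the 21 windows (71.4%), against 23.1% of 27025 genes. AGGAAGT, which can overlap it, occurred in 9 of the 21 (42.9%), against 7.80% of all genes. These strings were picked for print after 7 had been counted. The other 5 were GAGGAAGT in 2 windows (9.52%, against 2.44% of all genes), CTTTGAA in 1 (4.76%, against 4.64%), CTTTGAT in 1 (4.76%, against 3.23%), TGTGGT in 3 (14.3%, against 14.2%) and CAGGTG in 7 (33.3%, against 17.1%). The windows of 4 genes that differed between the lines are shown: GAGGAA stands in capitals, or as TTCCTC where it lies on the other strand, and 1 window holds none. T cell genes were left out of this display, among them Tcf7, whose window holds 1 copy of GAGGAA. For Cd14 no window was at hand.
Laptm5, chr4:130913066-130913315, plus strand: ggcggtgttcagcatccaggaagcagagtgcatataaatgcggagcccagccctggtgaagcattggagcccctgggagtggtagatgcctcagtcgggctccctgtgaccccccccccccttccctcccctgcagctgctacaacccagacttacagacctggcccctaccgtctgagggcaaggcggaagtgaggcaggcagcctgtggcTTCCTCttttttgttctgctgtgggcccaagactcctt
Fcgr3, chr1:171059404-171059653, minus strand: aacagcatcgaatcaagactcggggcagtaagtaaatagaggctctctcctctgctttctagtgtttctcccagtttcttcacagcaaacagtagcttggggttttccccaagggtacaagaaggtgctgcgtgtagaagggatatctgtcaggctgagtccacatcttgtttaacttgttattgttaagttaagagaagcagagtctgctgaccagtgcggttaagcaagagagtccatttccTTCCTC
Lyz2, chr10:117282273-117282522, minus strand: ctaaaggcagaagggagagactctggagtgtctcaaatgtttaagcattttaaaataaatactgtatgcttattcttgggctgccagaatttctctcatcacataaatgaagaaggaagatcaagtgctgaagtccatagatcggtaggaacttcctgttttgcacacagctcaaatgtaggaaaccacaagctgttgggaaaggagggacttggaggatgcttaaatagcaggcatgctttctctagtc
Cd68, chr11:69666171-69666420, minus strand: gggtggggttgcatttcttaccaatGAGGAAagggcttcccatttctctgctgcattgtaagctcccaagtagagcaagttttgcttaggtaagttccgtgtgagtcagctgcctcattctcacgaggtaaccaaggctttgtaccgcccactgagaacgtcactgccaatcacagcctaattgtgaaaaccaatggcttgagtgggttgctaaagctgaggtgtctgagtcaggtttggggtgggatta
In Fcgr3 the match ended at the start itself, with its first base 6 bases before it. In Laptm5 the match began 38 bases before the start and in Cd68 225 bases before it. Lyz2 held no GAGGAA but 1 copy of AGGAAGT. A match is a description of the letters only, and Spi1, the gene of PU.1, was flagged on 0 arrays.

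The δ and β lines were then compared, first without doxycycline. In these comparisons the line and the slide column cannot be told apart. Of the 26 leukocyte genes tested, 6 passed the threshold (limma, Benjamini-Hochberg adjusted p of at most 0.05), 3 higher and 3 lower in the δ line. The background over all 19023 genes was 13.2%, with 7.93% higher and 5.28% lower. The higher genes were Laptm5, Tcf7 and Fcgr3, and the lower ones were Cd14, Lyz2 and Cd68. The median log2 difference of the 26 was 0.21, against 0.02 over all genes tested. With doxycycline, 5 of the 26 passed, beside a background of 15.3% (9.75% higher and 5.51% lower): Tcf7 and Fcgr3 were higher and Cd14, Cd68 and Lyz2 lower in the δ line. The median there was -0.28, against -0.01 over all genes. The 2 comparisons used different arrays but 1 shared estimate of the spread. Laptm5, Fcgr3 and Lyz2 were among the 7 genes flagged on some arrays only. Laptm5 entered the test through the δ line with doxycycline, Fcgr3 through both δ groups and Lyz2 through the β line with doxycycline. Fcgr3 in both comparisons and Lyz2 with doxycycline therefore entered through the group in which they were higher, and their p-values and places in these counts are given as a description only.

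Cd14 encodes the coreceptor for bacterial lipopolysaccharide on monocytes and macrophages. Without doxycycline its level was -0.55 and -0.53 in the δ line, against 0.58 and 0.77 in the β line. With doxycycline it was -0.50 and -0.45 in the δ line, against 0.58 and 0.77 in the β line. All 4 δ arrays lay below all 4 β arrays, and the probe was flagged on every array. The δ line was lower by a log2 difference of -1.21 ± 0.11 (SE) without doxycycline (2.32-fold, limma adjusted p = 0.00147) and of -1.16 ± 0.11 with it (2.23-fold, limma adjusted p = 0.00193). A different Cd14 probe, also flagged on all arrays, gave -1.10 without and -1.32 with doxycycline. Between treatments of a line the level of Cd14 differed little, with log2 differences of 0.06 in the δ line and 0.00 in the β line, and neither passed the threshold.

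Cd68 encodes a lysosomal membrane protein abundant in macrophages. Without doxycycline it was at 0.62 and 0.80 in the δ line, against 1.46 and 1.38 in the β line. With doxycycline it was at 0.22 and 0.71 in the δ line, against 1.45 and 1.55 in the β line. The groups of the lines did not overlap, and the δ arrays with doxycycline were the most spread. The log2 difference between the lines was -0.71 ± 0.17 without doxycycline (1.63-fold lower in the δ line, limma adjusted p = 0.0471) and -1.04 ± 0.17 with it (2.05-fold lower, limma adjusted p = 0.0139). The other Cd68 probe gave -0.79 and -1.06 in the same order of treatments.

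Lyz2 encodes lysozyme M of macrophages and granulocytes. It was at -6.36 and -6.27 in the δ line without doxycycline, against -5.38 and -4.81 in the β line without it. Lyz2 with doxycycline was at -6.12 and -6.08 in the δ line, against -5.15 and -5.46 in the β line. It was flagged on no δ array and on 3 of the 4 β arrays, so the δ level is uncertain. The folds took, for each δ array, the higher of the probe's own level and the lowest level flagged on that array. They are not strict lower limits, because a probe above that level could be unflagged. Rag2 was unflagged at -4.96 on untreated δ replicate 1, where the lowest flagged level was -5.27. The p-values are those of the measured levels. So taken, Lyz2 was 1.13-fold lower in the δ line without doxycycline (means -6.32 in the δ line and -5.10 in the β line, limma adjusted p = 0.0135). With doxycycline it was 1.55-fold lower (means -6.10 in the δ line and -5.31 in the β line, limma adjusted p = 0.0494). With no filter on dim probes the limma adjusted p was 0.0219 without doxycycline and 0.0690 with it. After normexp background correction the log2 differences were -0.25 without doxycycline (limma adjusted p = 0.296) and -0.38 with it (limma adjusted p = 0.114), so both calls depend on how background was removed.

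**Figure D2:**
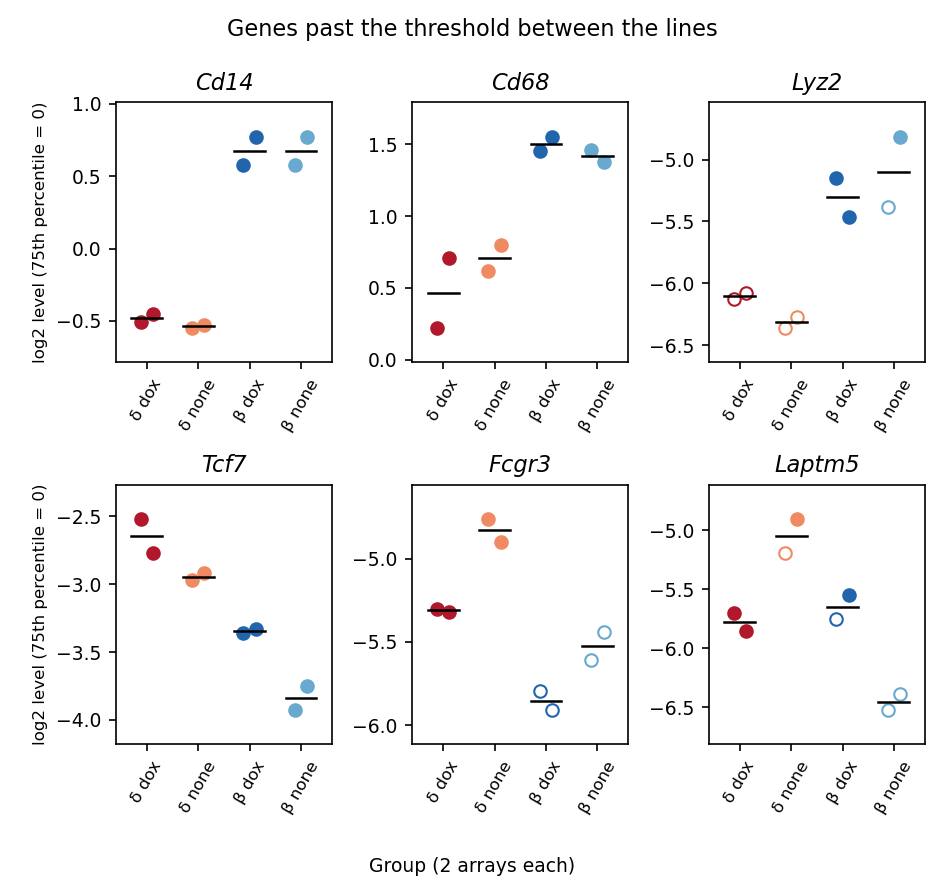
Level of 6 leukocyte genes on each array (y axis: log2 intensity, 75th percentile of the array = 0) in the 4 groups (x axis, 2 arrays each). Points are arrays, open where not well above background, and lines are group means; Cd14 and Cd68 lay lower and Tcf7 higher on all δ arrays than on any β array.

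Tcf7 encodes TCF1, a transcription factor of early T cell development. Without doxycycline its level was -2.97 and -2.92 in the δ line, against -3.93 and -3.75 in the β line. With doxycycline it was -2.52 and -2.77 in the δ line, against -3.36 and -3.33 in the β line. All δ arrays were above all β arrays. The log2 difference was 0.90 ± 0.12 without doxycycline (1.86-fold higher in the δ line, limma adjusted p = 0.00581) and 0.70 ± 0.12 with it (1.62-fold higher, limma adjusted p = 0.0149). The other probe of Tcf7, flagged on 0 arrays, gave 0.69 and 0.41, both of them differences within background signal.

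Fcgr3 encodes a low-affinity receptor for immunoglobulin G. It was flagged on all 4 δ arrays and on no β array. Without doxycycline it was at -4.76 and -4.90 in the δ line, against -5.61 and -5.44 in the β line. Fcgr3 with doxycycline was at -5.30 and -5.32 in the δ line, against -5.80 and -5.91 in the β line. The lines did not overlap within a treatment. Set against the lowest flagged β levels, as for Lyz2, Fcgr3 was 1.37-fold higher in the δ line without doxycycline (means -4.83 in the δ line and -5.52 in the β line, limma adjusted p = 0.00975). With doxycycline it was 1.34-fold higher (means -5.31 in the δ line and -5.85 in the β line, limma adjusted p = 0.0226). These folds are not strict lower limits either. With no filter on dim probes the limma adjusted p was 0.0168 without doxycycline and 0.0349 with it. With normexp background correction the log2 difference was 0.36 without doxycycline (limma adjusted p = 0.118) and 0.01 with it (limma adjusted p = 0.974), so both calls depend on how background was removed.

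Fcer1g, which encodes the Fc receptor gamma chain that carries the ITAM for FCGR3, was flagged on all 8 arrays. It was at -1.86 and -1.91 in the δ line with doxycycline, -1.39 and -1.78 in the δ line without it, -1.44 and -1.80 in the β line with doxycycline and -1.25 and -1.66 in the β line without it. The groups lay close together, with log2 differences between the lines of -0.13 without and -0.26 with doxycycline, and neither passed.

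Laptm5 encodes a lysosomal membrane protein of lymphoid and myeloid cells that lowers surface antigen receptors. Without doxycycline it was at -5.19 and -4.91 in the δ line, against -6.52 and -6.39 in the β line. Laptm5 with doxycycline was at -5.70 and -5.85 in the δ line, against -5.75 and -5.55 in the β line. The lines were apart without doxycycline and overlapped with it. Set against the lowest flagged β levels, the δ line without doxycycline was 1.18-fold higher (means -5.05 in the δ line and -6.46 in the β line, limma adjusted p = 0.00200), with 1 of its 2 arrays flagged and neither β array. After normexp background correction the log2 difference without doxycycline was 0.48 (limma adjusted p = 0.0406), against 1.41 between the measured levels. With doxycycline the log2 difference was -0.12.

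The comparison within each line set the doxycycline arrays against the untreated ones, and no leukocyte gene passed the threshold in either line. In this comparison the mutant, doxycycline itself and the slide row cannot be told apart. In the δ line 0 of the 26 genes passed the threshold (limma), beside a background of 0.0736% of all genes. At an unadjusted p under 0.05 there were 7 of 26, 2 higher and 5 lower, beside 15.0% of all genes, 8.69% higher and 6.32% lower. In the β line 0 of the 26 passed (limma), beside a background of 0.247%, and 9 had an unadjusted p under 0.05, 7 higher and 2 lower, beside 18.2% of all genes, 9.55% higher and 8.66% lower. Rag2 and Laptm5 among the 7 higher, and Fcgr3 among the 2 lower, were flagged on no untreated β array. Counts of 0 of 26 lie near these backgrounds.

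The direction of the 26 differences was nonetheless uneven. In the δ line 9 were above zero, with a median of -0.14, against 50.1% and a median of 0.00 over all genes. Without replicate 1 of the untreated δ line, the array with the defect, this median was -0.003, and without replicate 2 it was -0.30. In the β line 21 of the 26 were above zero, with a median of 0.25, against 55.8% and a median of 0.03 over all genes. Rag2, Ptcra and Cd79b, all among the 21, entered the test only through doxycycline groups. Laptm5, also among them, entered only through the δ line with doxycycline, and no direction can be stated for it in the β line. The counts above zero and the medians are therefore given as a description only. Of the 26, 12 were among the dimmest 4756 genes tested, of which 70.6% were above zero in the β line, with a median of 0.15.

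**Figure D3:**
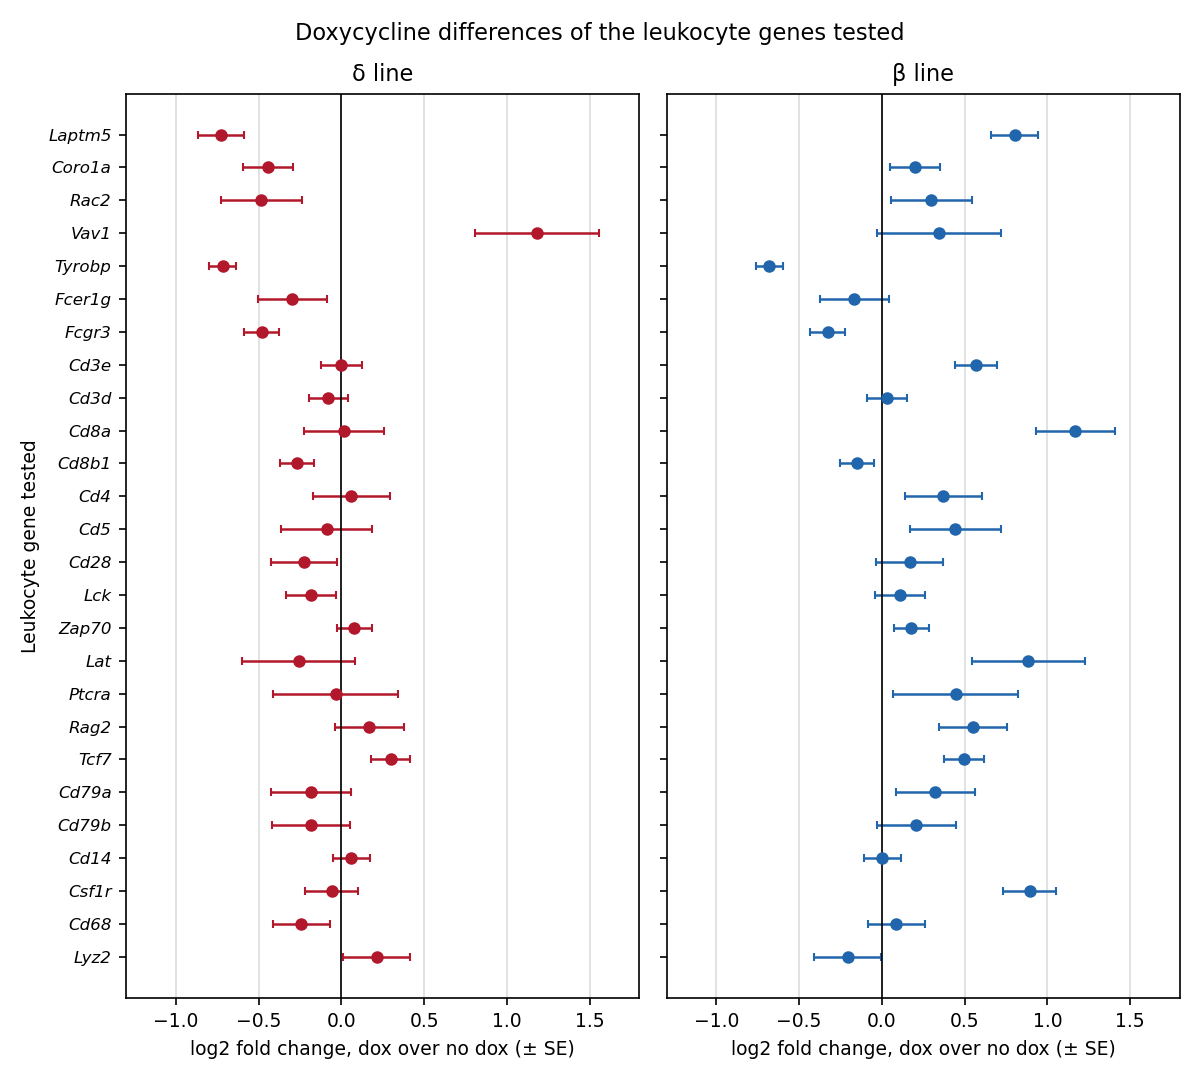
Log2 fold change with doxycycline over no doxycycline (x axis) of the 26 leukocyte genes tested (y axis) in the δ line (left) and the β line (right). Points are estimates and bars are SE from limma; Tyrobp lay below zero in both lines. The points of Rag2 in both lines, of Lyz2 in the δ line and of Laptm5, Fcgr3 and Ptcra in the β line rest on at least 1 group not well above background.

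Tyrobp encodes DAP12, the ITAM adaptor of receptors on natural killer and myeloid cells. With doxycycline it was at 0.47 and 0.44 in the δ line, against 1.18 and 1.17 without it. Tyrobp in the β line was at 0.27 and 0.18 with doxycycline, against 0.91 and 0.90 without it. All 4 doxycycline arrays lay below all 4 untreated arrays, the replicates lay close together, and the probe was flagged on every array. The log2 difference was -0.72 ± 0.08 in the δ line (1.65-fold lower, limma adjusted p = 0.0697) and -0.68 ± 0.08 in the β line (1.60-fold lower, limma adjusted p = 0.0540), both short of the threshold. Tyrobp passed in 5 of 18 alternative settings in each line, among them a filter to probes flagged on all arrays (limma adjusted p = 0.0448 in the δ line and 0.0299 in the β line). The array row, which differs with doxycycline in both lines, was not tested.

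Laptm5 had a log2 difference with doxycycline of -0.73 ± 0.14 in the δ line (limma adjusted p = 0.159). In the β line the measured levels differed by 0.80 (limma adjusted p = 0.0735), but the untreated β arrays, at -6.52 and -6.39, lay below the lowest levels flagged on them, -5.19 and -5.37. Set against those levels the β line gives no fold above 1, and no direction can be stated for it. The δ effect minus the β effect, which rests on the same untreated β levels, was -1.53 ± 0.20 with a limma adjusted p of 0.498. For this test 0 of the 26 leukocyte genes passed, beside a background of 0.00526%, and 5 had an unadjusted p under 0.05, all with the lower effect in the δ line, beside 7.53% of all genes in either direction and 4.51% of all genes with the lower effect in the δ line. Cd8a was among the 5, although its other probe had the higher effect in the δ line. Without replicate 2 of the untreated δ line the difference for Laptm5 was -1.39 (limma adjusted p = 0.0116), but that fit kept 1 untreated δ array, took its spread from the other groups and called 1056 of all genes, against 1 with all arrays.

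Csf1r encodes the receptor for colony stimulating factor 1, on which macrophages depend. It was at 2.13 and 2.16 in the δ line with doxycycline, against 2.42 and 1.98 without it, and these groups overlapped. Csf1r in the β line was at 2.66 and 2.86 with doxycycline, against 1.88 and 1.86 without it, and these groups were apart. The log2 difference was -0.06 ± 0.16 in the δ line and 0.89 ± 0.16 in the β line (1.86-fold, limma adjusted p = 0.0754). The other Csf1r probe, flagged on all arrays, gave 0.15 in the β line, so the probes of this gene disagreed in size. Between the lines with doxycycline the difference was -0.62 ± 0.16 (limma adjusted p = 0.0504).

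Among the genes of the T cell receptor complex, Cd3e was at 1.55 and 1.65 in the δ line with doxycycline, against 1.64 and 1.56 without it. Cd3e in the β line was at 1.78 and 2.09 with doxycycline, against 1.37 and 1.36 without it. The δ groups overlapped and the β groups did not. The log2 difference in the β line was 0.57 ± 0.13 (limma adjusted p = 0.101), and the other Cd3e probe gave 0.60. Its partner Cd3d was at -2.22 and -1.95 in the δ line with doxycycline, -1.95 and -2.07 in the δ line without it, -2.06 and -2.11 in the β line with doxycycline and -2.08 and -2.15 in the β line without it. Cd3d differed by 0.03 with doxycycline in the β line, where Cd3e differed by 0.57; whether these 2 differences differ was not tested.

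The coreceptor gene Cd8a was at -1.70 and -1.90 in the δ line with doxycycline, against -1.48 and -2.15 without it. Cd8a in the β line was at -0.98 and -1.19 with doxycycline, against -2.40 and -2.11 without it. The β groups were apart, with a log2 difference of 1.17 ± 0.24 (2.25-fold, limma adjusted p = 0.0911), while the other Cd8a probe gave 0.23. In the δ line that other probe, flagged on 7 arrays, gave 1.18, against 0.01 by the chosen probe. Cd8a therefore had the larger difference in the β line by the chosen probe and in the δ line by the other. Cd8b1, the gene of its partner chain, was at -1.37 and -1.31 in the δ line with doxycycline, against -0.97 and -1.17 without it. In the β line Cd8b1 was at -1.11 and -1.04 with doxycycline, against -0.89 and -0.96 without it, so it lay slightly lower with doxycycline in both lines. The log2 differences of Cd8b1 were -0.27 in the δ line and -0.15 in the β line, and neither passed.

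Cd4 encodes the coreceptor of helper T cells, and its probe was flagged on every array. It was at 3.88 and 4.01 in the δ line with doxycycline, against 3.74 and 4.03 without it. In the β line it was at 4.14 and 4.82 with doxycycline, against 4.18 and 4.04 without it. The groups overlapped in both lines. A different Cd4 probe was also flagged on all 8 arrays.

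**Figure D4:**
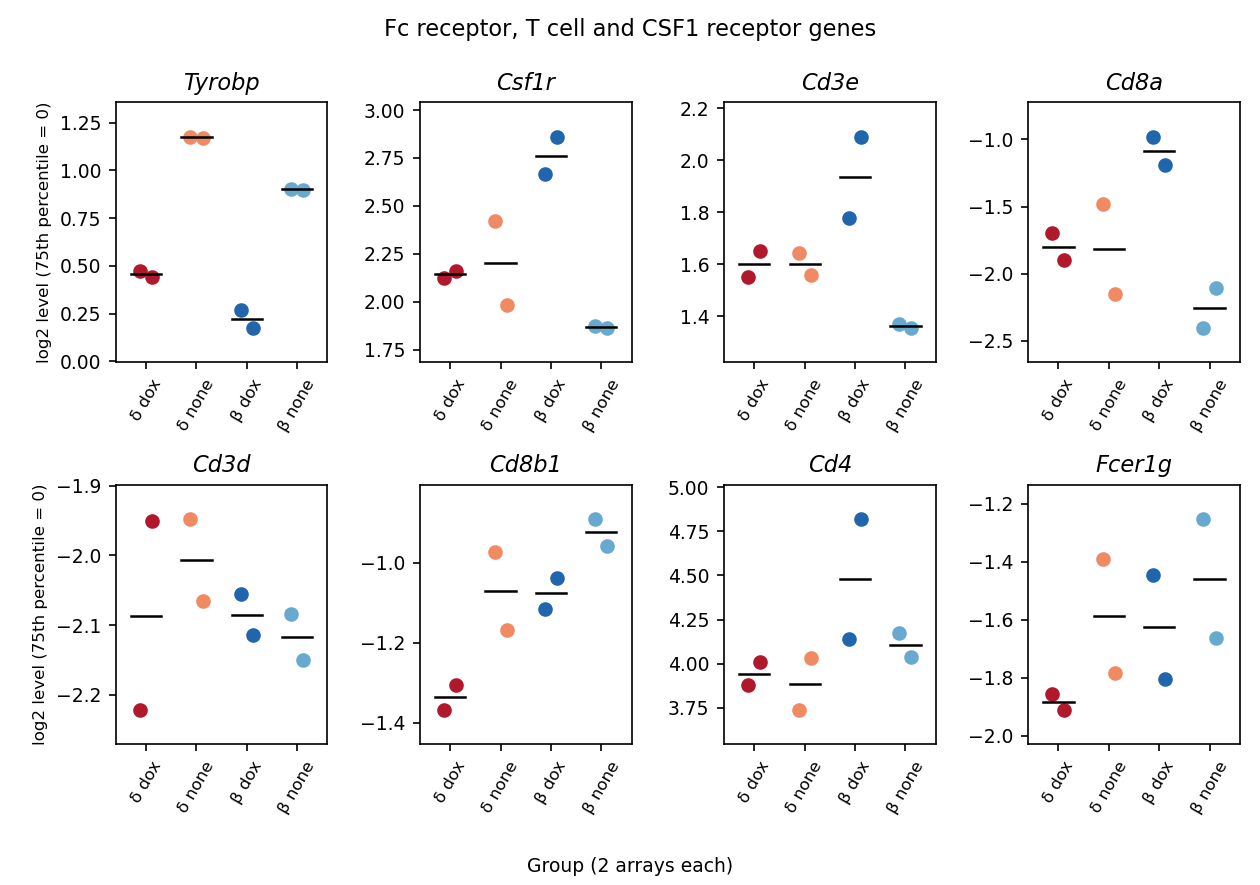
Level of 8 leukocyte genes on each array (y axis: log2 intensity, 75th percentile of the array = 0) in the 4 groups (x axis, 2 arrays each). Points are arrays and lines are group means; Tyrobp lay lower on every doxycycline array than on any untreated array, and Csf1r, Cd3e and Cd8a were highest in the β line with doxycycline.

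For Tcf7 the log2 difference with doxycycline was 0.30 ± 0.12 in the δ line (limma adjusted p = 0.328) and 0.50 ± 0.12 in the β line (limma adjusted p = 0.116). For Fcgr3 it was -0.48 ± 0.11 in the δ line (limma adjusted p = 0.189), and in the β line no β array was flagged, so no difference is given. Vav1, which encodes an exchange factor downstream of antigen receptors, had the largest log2 difference of the 26 in the δ line, at 1.18 ± 0.37 (limma adjusted p = 0.278), and was singled out after its values were seen. It was at -4.22 and -4.27 with doxycycline, against -6.04 and -4.83 without it. The value of -6.04 was not well above background. It came from the untreated replicate with the defect, though the probe lay in no deviant tile. The other members tested were Coro1a and Rac2, regulators of the leukocyte cytoskeleton, the T cell genes Cd5, Cd28, Lck, Zap70, Lat, Ptcra and Rag2, and the B cell receptor chains Cd79a and Cd79b. Their log2 differences with doxycycline lay between -0.48 and 0.17 in the δ line and between 0.11 and 0.88 in the β line, and none passed. Rag2 in both lines and Ptcra in the β line were not well above background without doxycycline, so their values within these ranges are differences of measured levels only.

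Wider lists of leukocyte genes, other than the 32, held 35 T lineage, 15 B lineage, 32 myeloid and 36 pan-leukocyte genes tested, of which 0 passed with doxycycline in either line (limma). At an unadjusted p under 0.05 there were, in that order of lists, 4, 5, 9 and 7 genes in the δ line, beside 15.0% of all genes, and 8, 4, 8 and 6 in the β line, beside 18.2%. Between the lines without doxycycline, 4 of the 35 T lineage genes passed (3 higher and 1 lower in the δ line), 3 of the 15 B lineage genes (0 higher and 3 lower), 7 of the 32 myeloid genes (5 higher and 2 lower) and 9 of the 36 pan-leukocyte genes (5 higher and 4 lower), beside 13.2% of all genes. With doxycycline 4, 4, 9 and 9 genes of these lists passed, in the same order, beside 15.3% of all genes. The T lineage counts lay near these shares. Genes flagged on some arrays only were among those counted, such as Blnk (5 arrays), Il7r (3 arrays) and Themis (2 arrays). Such genes may have entered the test through the line in which they were higher. These counts are therefore given as a description only. Myeloid genes of the wider list passed in both directions between the lines. So did those of the 32: Cd14, Cd68 and Lyz2 were lower in the δ line. Fcgr3, and Laptm5 without doxycycline, which were also listed as myeloid, were higher. Csf2ra, which encodes the alpha chain of the receptor for granulocyte-macrophage colony stimulating factor, was 46.1-fold higher in the δ line without doxycycline and 32.6-fold higher with it (limma adjusted p = 6.0e-06 and 6.1e-06). Lyz1, a near-identical paralog of Lyz2 whose transcripts the probes may share, was 2.71-fold lower without doxycycline (limma adjusted p = 0.00232). Markers of other cell types also differed between the lines without doxycycline. Of 13 general thymic epithelial genes tested, 3 passed, the keratins Krt14 (13.4-fold), Krt8 and Krt18, all lower in the δ line, and the median log2 difference of the 13 was -0.001. Of 8 cortical genes Cxcl12 was higher and Prss16 lower, and of 11 fibroblast genes 2 were higher, among them Pdgfrb (6.39-fold). With doxycycline 2 general, 2 cortical and 4 fibroblast genes passed. The part of these in the leukocyte differences was not tested.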

How the data were processed

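Total RNA (200 ng per array) of TEC100.4 cells was labelled with Cy3 and hybridised to one-colour Agilent arrays, per the labels' protocols. The deposited intensity values are linear spot signals from which the authors' scanner software had removed background and a spatial trend. Per the file headers this was Agilent Feature Extraction in version 11.5.1.1, and 11.5.11 per the submitters' processing notes. Its deposited flags mark outlying, saturated and well-above-background spots. The multiplicative detrending fit was recorded as 0 on 3 doxycycline arrays and between 0.067 and 0.126 on the other 5, so this step was uneven.

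Control spots and outlier-flagged spots were left out, spots of a probe averaged on the log2 scale, and each array's 75th percentile subtracted. A RefSeq gene table (GRCm38.p6) named 32931 of 56605 probes by transcript accession; 27215 named probes passed the background flag in both replicates of 1 group or more and gave 19023 genes by their brightest probe. Detection counts used the brightest of all probes of a gene. No chosen probe was saturated. The limma fit (version 3.58.1 under R 4.3.3, lmFit then eBayes) gave each group a mean over all 8 arrays and left 4 residual degrees of freedom, with Benjamini-Hochberg adjustment over all genes at a threshold of 0.05. Depth has no counterpart here, and the number of arrays limits the precision. Where a whole group was not flagged well above background, folds took the lowest flagged level of each of its arrays if the probe lay below it. Such folds are not strict limits.

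Values on every array are given for members past the threshold or with an unadjusted p under 0.01 in any of 5 comparisons, for the 6 detected on most arrays and brightest, and for partner chains of their complexes; other genes named were singled out after their values were seen. The members and lists were chosen with earlier results of these data known. On simulated data for doxycycline in the β line (19023 genes, 200 changed), 61% of changes of 1 on the log2 scale and 86% of changes of 2 were called, and 0.0478% of unchanged genes.

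Alternatives were the scaling, the background correction (normexp, offset 50, on median spot signals), the filter, the probe rule, the arrays fitted, an intensity trend, a replicate block, leaving out probes in deviant tiles and leaving out each array. Whether second title indices pair the arrays of a line was checked by the correlation of their deviations, which was 0.0759 in the δ line and 0.0185 in the β line, under the 0.1 asked for. A search for ITAMs in proteins was not analysed here.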

Additional observations from a re-analysis of the deposited data

Results flagged for a closer look

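Laptm5 drew attention because the measured levels of every array of one line moved against those of the other with doxycycline. The log2 difference of these levels was -0.73 in the δ line and 0.80 in the β line, and the δ effect minus the β effect was -1.53. The interaction test of this difference gave a limma adjusted p of 0.498, and the untreated β levels (-6.52 and -6.39) lay below the lowest levels flagged on those arrays (-5.19 and -5.37). No direction can therefore be stated for the β line, nor that the lines moved in opposite ways.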

How the results depend on the processing

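Across the alternatives run, the 23 named differences kept their direction in 403 of 403 recomputed values. Many of these values could not change. An intensity trend, a replicate block or leaving out an array of another group alters the p-value but not the estimate. The count of 403 is therefore no measure of how robust the directions are. Calls lost numbered 38 and calls gained 27. Cd14 passed under all 18 alternatives both without and with doxycycline, and Laptm5 without doxycycline under all 17, though its log2 difference ranged from 0.48 (normexp) to 1.55. Between the lines without doxycycline, Tcf7 passed under 17 of 18, Lyz2 under 15 of 17 (-1.50 to -0.25, the smallest with normexp, limma adjusted p = 0.296), Fcgr3 under 14 of 17 and Cd68 under 10 of 18. With doxycycline, Cd68 passed under 15 of 18, Tcf7 under 14 of 18, Fcgr3 under 11 of 17 and Lyz2 under 6 of 17.

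For doxycycline in the β line, 2 leukocyte genes passed with a filter to probes flagged on all arrays, 2 with an intensity trend and 1 without probes in deviant tiles; leaving out 1 array gave 0 to 4, the highest without either untreated δ array. In the δ line 1 passed with no filter, with the all-arrays filter, with the trend and without deviant tiles, and leaving out 1 array gave 0 to 2, the highest without untreated δ replicate 2. For the difference of the effects, leaving out 1 array gave 0 to 4, the highest again without untreated δ replicate 2. Between the lines without doxycycline, 3 passed with the all-arrays filter (19 genes tested) and 2 with only the arrays compared; leaving out 1 array gave 5 to 10. With doxycycline, 2 passed after normexp (0 higher and 2 lower, against 2 higher and 3 lower), 9 with only the arrays compared, and leaving out 1 array gave 1 to 8. Cd68 without doxycycline lost its call without either doxycycline β array, either untreated β array or untreated δ replicate 1 (limma adjusted p = 0.0851 to 0.163). With doxycycline, Fcgr3 and Lyz2 lost theirs without any 1 of the 4 arrays compared (0.0682 to 0.233), and Cd68 and Tcf7 without either β array or δ replicate 1 (0.0619 to 0.118). The cause was not tested.

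Background calls over all genes ranged from 0 to 334 in the β line (47 reported), 1 to 1621 in the δ line (14), 0 to 1056 for the difference (1), 716 to 3761 between untreated lines (2513) and 697 to 4117 with doxycycline (2903). Higher genes made 28.3% of the β line calls under quantile normalization, 28.6% under median centring and 31.6% under normexp, against 46.8%. In the δ line they made 11.1% under quantile normalization and 0% under normexp, against 28.6%.

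With the replicate block, fitted as a fixed block within a line and as a random block between lines (consensus correlation 0.0965), 0 leukocyte genes passed in the δ line, 0 in the β line, 6 between the lines without doxycycline and 4 with it, where Lyz2 lost its call (limma adjusted p = 0.0547). The numbers do not pair the samples. Of the 32 genes, 6 were not well above background on any array and were tested only with no filter on dim probes.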
